A study of Mus musculus with 10 samples.

Results

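TRBV13 is a family of closely related variable (V) segments of the mouse T cell receptor β chain, known in the older nomenclature as V-beta 8. Its members here are TRBV13-1 (Tcrb-V8.3), TRBV13-2 (Tcrb-V8.2) and TRBV13-3 (Tcrb-V8.1). Clonotypes were taken as members by the V segment that the authors assigned to them. The 3 segments, of 26 TRBV segments listed, held 9520 of 29481 clonotypes and 222070 of 552208 reads in 9 β chain libraries.

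T cells were sorted from ear skin and peripheral lymph node, and their β chain transcripts were amplified from RNA and sequenced. Epidermal αβ T cells (3 libraries, A to C) came from Tcrd-/- mice, strain B6.129P2-Tcrdtm1Mom/J, and were gated as CD45+, CD3hi and TCRβhi. From the dermis of the same strain came CD103hi and CD103+ T cells (1 library each) and bulk T cells (2 libraries, A and B), all CD45+CD3+TCRβ+. T cells of the same gate came from the dermis of C57BL/6-N/Crl wild-type (WT) mice and from lymph node of Tcrd-/- mice (1 library each). Tcrd-/- mice carry a targeted Tcrd allele and make no γδ T cells, so their epidermis lacks the γδ cells that normally occupy it. The labels give no age, sex or treatment. Each library was 1 pool of cells from 5 to 18 animals, so p-values measure only the spread between these pools. A γ chain library from WT epidermis holds no β chain and was not used.

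A β chain is built in the thymus by joining a V, a diversity (D) and a joining (J) segment. The third complementarity-determining region (CDR3) spans that junction and touches the antigen. Nucleotides that the germline does not encode can be inserted at the joins, and few are inserted before the enzyme terminal deoxynucleotidyl transferase is expressed. The V segment itself supplies the first residues of the CDR3 and loops that face the MHC molecule. In the mouse, TRBV13 chains are common in conventional T cells, bind staphylococcal enterotoxin B, and include the TRBV13-2 chains used by many invariant natural killer T cells. A β chain alone does not identify such cells.

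The germline ends of the 3 segments are shown because they set the start of every CDR3 described here and differ between the members at 1 base. Sequences are read 5′ to 3′ from the cysteine codon, and the capital marks the differing position:
TRBV13-2: tgtgccagcGgtgatg
TRBV13-3: tgtgccagcAgtgatg
TRBV13-1 has the same 16 bases as TRBV13-3. Counted from 1 at the first base, TRBV13-2 differs from both by A10G, so its CDR3 starts with CASGD and that of the other members with CASSD. Some junctions called free of insertions have no D segment assigned. The D segments are shown because others run through one of them:
TRBD1: gggacagggggc
TRBD2: gggactgggggggc

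These sequences and positions are from the GENCODE M21 annotation of GRCm38; the build behind the deposited files is not given in the sources used here. TRBV13-1 lies on chromosome 6 from 41116007 to 41116468, TRBV13-2 from 41121396 to 41121832 and TRBV13-3 from 41130147 to 41130585, all on the plus strand and annotated as T cell receptor V genes. TRBD1 begins at 41533201 and TRBD2 at 41542163 of the same chromosome. Over the annotated transcripts, TRBV13-2 and TRBV13-3 were identical at 308 of 340 aligned bases (90.6%). TRBV13-1 matched TRBV13-2 at 88.6% and TRBV13-3 at 85.9% of 334 bases. Over all clonotypes with a complete CDR3, the assigned segment's own base stood at the differing position in 95.8% of TRBV13-1, 98.2% of TRBV13-2 and 95.6% of TRBV13-3. The other base of that pair stood there in 2.32, 1.10 and 3.06% of the 3 members in the same order. Whether these chains belong to another member was not tested. No junction was listed under more than 1 V segment in the same library. The sources used here do not say whether the clonotype caller allows that, so it does not test the assignment.

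The epidermal libraries held 46114, 51359 and 43891 reads, with 91, 128 and 28 clonotypes of the family. CD103hi and CD103+ libraries held 31823 and 42849 reads, with 109 and 165 TRBV13 clonotypes. Dermal A and B held 52910 and 41602 reads, with 102 and 24. The WT dermal library held 189162 reads and 268 TRBV13 clonotypes, and the lymph node library 52498 reads and 8605. No molecular identifiers are named in the labels, so a read is not a molecule, and the exact 95% intervals cover counting error only. Of the 915 TRBV13 clonotypes in skin, 48 were traces, meaning that an identical nucleotide clonotype was more than 100 times as frequent in a library of the same name set. Traces were 12 of 28 in epidermal C, 20 of 165 in CD103+, 10 of 102 in dermal A, and at most 3 in each other skin library. The labels' library names form 3 sets: lymph node with dermal A and epidermal A; both CD103 sorts with epidermal B; and WT dermis with dermal B and epidermal C. No marker gene was measured, so the sort gates could not be checked here.

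TRBV13 chains made up a smaller part of the epidermal than of the bulk dermal Tcrd-/- reads, and by group means TRBV13-3 was the member of the 3 that was lower. The family took 34.5, 36.1 and 26.0% of the reads of epidermal A, B and C, against 56.5 and 42.0% in dermal A and B. It took 19.7% in CD103hi cells, 31.8% in CD103+ cells, 48.6% in WT dermis and 32.4% in the lymph node library. Epidermal reads averaged 32.2% ± 5.40 TRBV13 (SD, n = 3) and dermal reads 49.3% ± 10.3 (SD, n = 2), with no overlap. The difference of -17.1 percentage points had an exact permutation p = 0.2, the smallest that 3 against 2 libraries allows, and 0.35 after Benjamini-Hochberg adjustment over 7 measures. It was -22.1 points within the library set of the A libraries and -16.0 within the set of dermal B and epidermal C. Without dermal A it was -9.79 points, and with CD103hi and CD103+ cells counted as dermal -5.32. In such bulk pools, more cells of a kind and more transcripts per cell cannot be told apart.

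Counted by distinct clonotypes, the family's share overlapped between the skin layers. It held 28.6, 29.4 and 38.9% of clonotypes in epidermal A, B and C, against 43.4 and 31.2% in dermal A and B. CD103hi cells had 23.9% (exact 95% interval 20.0 to 28.0%) and CD103+ cells 33.5% (29.4 to 37.9%). WT dermis had 38.2% (34.6 to 41.9%) and lymph node 32.2% (31.7 to 32.8%). The epidermal minus dermal difference was -4.98 points (exact permutation p = 0.4, adjusted 0.467). It was -14.8 points in the set of the A libraries and 7.72 in the set of dermal B and epidermal C. Among clonotypes with at least 2 reads it was -12.1 points, without traces -7.11, and without dermal A 1.14.

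**Figure D1:**
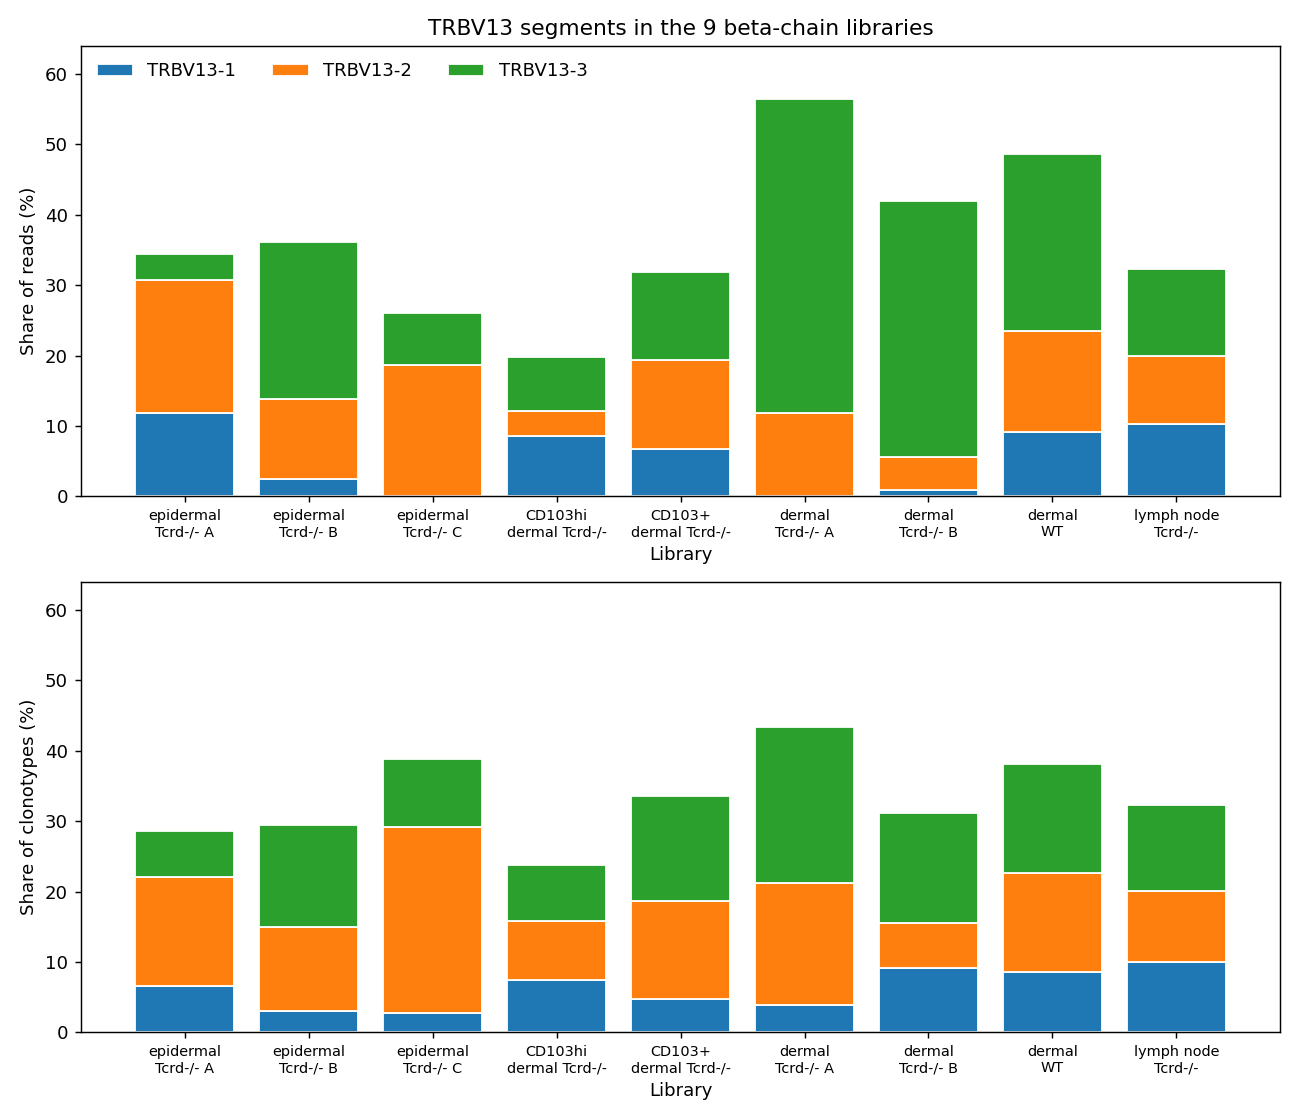
Share of each library's reads (upper panel, %) and of its clonotypes (lower panel, %) that used TRBV13-1, TRBV13-2 or TRBV13-3, stacked; each bar is 1 library and the full bar is the family. TRBV13-3 fills most of the dermal A and B read bars (44.6 and 36.5%), while the clonotype bars of all libraries stay between 23.9 and 43.4%.

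In percentage points of reads, TRBV13-3 had the widest range over libraries of the 3 members. It took 3.69, 22.3 and 7.43% of the reads of epidermal A, B and C, against 44.6 and 36.5% in dermal A and B. The values did not overlap, and how many of the other TRBV segments also separated the layers was not counted. Of the epidermal libraries, B alone came near the 25.0% of WT dermis. CD103hi cells had 7.69%, CD103+ cells 12.4% and lymph node 12.3%, all below every bulk dermal library. The log2 fold change of reads, epidermal over dermal, was -1.87 (SE 1.79). With edgeR's quasi-likelihood test the Benjamini-Hochberg adjusted p was 0.689.

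TRBV13-2 led the reads of epidermal A and was the second segment of epidermal C. Its share was 19.0, 11.4 and 18.6% in epidermal A, B and C, against 11.8 and 4.63% in dermal A and B. The groups overlapped through epidermal B and dermal A, and the log2 fold change was 0.99 (SE 1.79; edgeR adjusted p = 0.805). CD103hi cells had 3.42%, CD103+ cells 12.6%, WT dermis 14.4% and lymph node 9.80%.

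TRBV13-1 was the scarcest member by reads in 6 of 9 libraries. Its reads were 11.8, 2.49 and 0.00456% of epidermal A, B and C, against 0.115 and 0.897% in dermal A and B. The epidermal C value was 2 reads in 2 clonotypes. The groups overlapped, and the log2 fold change of 3.24 (SE 2.92; edgeR adjusted p = 0.689) was -0.22 with the library set as a block. CD103hi cells had 8.64%, CD103+ cells 6.74%, WT dermis 9.19% and lymph node 10.2%.

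None of the 3 members passed the edgeR test by reads, where 0% of 23 segments passed (4 had an unadjusted p under 0.05). Nor did any pass by clonotypes, where 0% of 21 passed (1 unadjusted; DESeq2 also called 0). With edgeR's default abundance trend in the dispersion, an alternative chosen after seeing the data, TRBV13-3 and TRBV15 passed by reads (8.7% of segments), TRBV13-3 with an adjusted p of 0.0495. When each library was left out in turn, the adjusted p of TRBV13-3 without the trend ranged between 0.649 and 0.859. DESeq2 called TRBV2, TRBV9, TRBV15 and TRBV23 (20% of the 20 segments it tested) and gave TRBV13-3 an adjusted p of 0.425.

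The composition of the family by clonotypes showed the same order of TRBV13-3 between the layers. TRBV13-3 was 23.1, 49.2 and 25.0% of TRBV13 clonotypes in epidermal A, B and C, against 51.0 and 50.0% in dermal A and B. It was 33.9% in CD103hi cells, 44.2% in CD103+ cells, 40.7% in WT dermis and 37.7% in the lymph node library. For the difference of -18.1 points the exact permutation p was 0.2 (adjusted 0.35), and the groups did not overlap, although epidermal B lay just below dermal B. It was -27.9 points in the set of the A libraries, -25.0 in the set of dermal B and epidermal C, and -29.3 among clonotypes with at least 2 reads. TRBV13-2 provided 53.8, 40.6 and 67.9% in the epidermal libraries, against 40.2 and 20.8% in the dermal ones. In lymph node the members were close to even, with 30.8% TRBV13-1, 31.5% TRBV13-2 and 37.7% TRBV13-3.

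Across the 9 libraries, TRBV12-1 had the clonotype share most like that of TRBV13-1 (Spearman 0.917), followed by TRBV1 (0.667). TRBV15 (0.717) and TRBV9 (0.525) were most like TRBV13-2, and TRBV20 (0.483) and TRBV21 (0.356) most like TRBV13-3. TRBV9 and TRBV21 were scarce, with median clonotype shares of 0 and 0.142% over the libraries, so their ranks rest on few clonotypes. The members did not follow each other: TRBV13-1 and TRBV13-2 had a Spearman coefficient of -0.667 and TRBV13-1 and TRBV13-3 of 0.0833. These are descriptions over 9 libraries whose shares each sum to the whole, and which differ widely in their number of clonotypes.

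The largest complete TRBV13 clonotype of each library is shown because a few such chains made up much of the family's reads. Capitals mark nucleotides that the authors' deposited positions assigned to no segment:
epidermal A, TRBV13-1 with TRBJ2-5: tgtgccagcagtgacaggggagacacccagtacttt
epidermal B, TRBV13-3 with TRBJ1-1: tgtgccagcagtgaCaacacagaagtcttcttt
epidermal C, TRBV13-2 with TRBJ2-7: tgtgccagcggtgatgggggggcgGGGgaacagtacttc
CD103hi, TRBV13-3 with TRBJ1-4: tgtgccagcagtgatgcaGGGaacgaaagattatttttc
CD103+, TRBV13-2 with TRBJ2-7: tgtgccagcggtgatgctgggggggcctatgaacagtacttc
dermal A, TRBV13-3 with TRBJ2-5: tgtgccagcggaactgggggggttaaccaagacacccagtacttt
dermal B, TRBV13-3 with TRBJ2-7: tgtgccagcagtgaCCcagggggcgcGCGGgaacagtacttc
WT dermis, TRBV13-2 with TRBJ2-2: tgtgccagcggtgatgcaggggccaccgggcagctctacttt
lymph node, TRBV13-1 with TRBJ1-1: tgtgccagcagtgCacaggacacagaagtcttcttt

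In epidermal A the leading chain, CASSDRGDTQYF, had 1674 reads, or 10.5% of TRBV13 reads. Epidermal B was led by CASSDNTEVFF with 1745 reads (9.41%), the largest clonotype of that library, and epidermal C by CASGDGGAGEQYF with 4330 reads (37.9%). The dermal leaders were larger within A, at 7160 reads (23.9%), and reached 4441 reads (25.4%) in B. Both used TRBV13-3 and both were the largest clonotype of their library. The dermal A chain matches the TRBV13-3 end over its first 9 bases and has at position 10 the base of TRBV13-2, so its CDR3 starts with CASG. It holds 7160 of the 23617 reads listed as TRBV13-3 in dermal A, and its assignment was not tested. Of the 9 leading TRBV13 clonotypes in epidermis, 3 per library, 6 had no inserted nucleotide by the deposited positions, and the 9 used all 3 members. Of the 6 in dermis, 1 had none, and all 6 used TRBV13-3. That 1 was the dermal A leader, so its lack of insertions rests on the deposited positions of a chain that keeps 9 germline V bases.

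The 3 leading clonotypes together held 27.9, 21.7 and 89.8% of the TRBV13 reads of epidermal A, B and C, against 40.8 and 58.2% in dermal A and B. CD103hi cells had 24.7%, CD103+ cells 20.5%, WT dermis 12.9% and lymph node 0.300%. Epidermal C and dermal B, with 28 and 24 TRBV13 clonotypes, were the most concentrated. In epidermal C the runners-up were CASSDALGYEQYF (TRBV13-3, 3252 reads) and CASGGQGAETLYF (TRBV13-2, 2689 reads), both without inserted nucleotides by the deposited positions. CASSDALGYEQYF supplied 99.8% of the TRBV13-3 reads there. Epidermal A had a TRBV13-1 and TRBJ2-7 chain (1556 reads) and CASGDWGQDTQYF (TRBV13-2, 1211 reads) next, and epidermal B had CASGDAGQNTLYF (1157 reads) and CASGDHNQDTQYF (1130 reads), both TRBV13-2. In dermal B, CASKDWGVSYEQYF (3510 reads) and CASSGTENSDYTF (2210 reads) came next.

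Epidermal TRBV13 chains had shorter CDR3 regions than dermal ones. Mean length over clonotypes was 13.1, 13.2 and 13.4 residues in epidermal A, B and C, against 14.3 and 14.2 in dermal A and B. The difference of -1.03 residues was larger than the spread within either group (13.2 ± 0.141, SD, n = 3, and 14.2 ± 0.0971, SD, n = 2). Its exact permutation p was 0.2 (adjusted 0.35), the smallest possible. It was -1.23 residues in the set of the A libraries and -0.810 in the set of dermal B and epidermal C. Length lay between the layers in CD103hi cells (13.5) and CD103+ cells (13.7). WT dermis had a mean of 14.1 residues and lymph node 13.7.

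The peak of the length distribution moved with this mean. The commonest length was 13 residues in all 3 epidermal libraries, against 15 in dermal A and 14 in dermal B. CD103hi, CD103+, WT dermal and lymph node libraries all peaked at 14. Clonotypes of up to 13 residues were 64.8, 69.5 and 67.9% of TRBV13 in epidermal A, B and C, against 26.5 and 37.5% in dermal A and B. Those of 15 or more were 14.3, 17.2 and 14.3% in epidermis, against 50.0 and 25.0% in dermis. By member, TRBV13-2 averaged 12.9, 13.3 and 13.2 residues in epidermis, against 14.1 and 13.6 in dermis. The means did not overlap, but that of dermal B rests on 5 clonotypes (SD 1.52). TRBV13-3 averaged 13.0, 13.1 and 13.9 residues in epidermis, against 14.7 and 13.8 in dermis, where epidermal C, with 7 such clonotypes, overlapped dermal B, with 12. TRBV13-1 averaged 13.6 and 12.8 residues in epidermal A and B, against 13.0 and 15.1 in dermal A and B (9 and 7 clonotypes). Its groups overlapped, and it was longer in epidermis in the set of the A libraries.

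**Figure D2:**
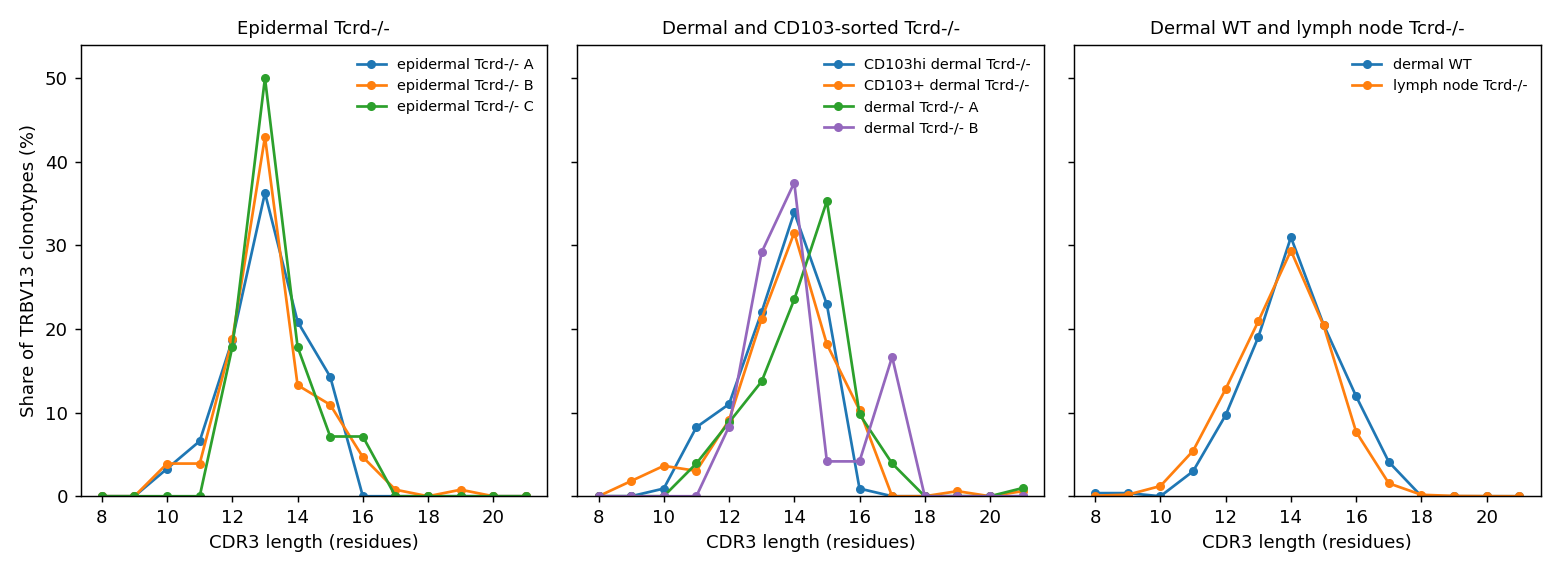
CDR3 length (residues, horizontal) against the share of each library's TRBV13 clonotypes (%, vertical) in the epidermal, the dermal and CD103-sorted, and the WT dermal and lymph node libraries; each line is 1 library, and lengths below 8, seen only in lymph node, are not drawn. The epidermal lines peak at 13 residues, and the other lines at 14 or, in dermal A, at 15.

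Junctions without inserted nucleotides were more frequent among epidermal TRBV13 chains. They made up 44.0, 43.8 and 32.1% of clonotypes in epidermal A, B and C, against 17.6 and 20.8% in dermal A and B. The means were 39.9% ± 6.76 (SD, n = 3) and 19.2% ± 2.25 (SD, n = 2), a difference of 20.7 points without overlap (exact permutation p = 0.2, adjusted 0.35). It was 26.3 points in the set of the A libraries and 11.3 in the set of dermal B and epidermal C. Among clonotypes with at least 2 reads it was 35.1 points, without traces 23.9, and with CD103hi and CD103+ cells counted as dermal 11.7. Counted from the reference sequences in place of the deposited positions it was 18.4 points. Both ways of counting gave the same call, with or without insertions, for 85.8% of TRBV13 clonotypes over all libraries. Lymph node held 8605 of these 9520 clonotypes, and 16.8% of its clonotypes lacked insertions. The figure therefore says little about the epidermal and dermal libraries, for which it was not computed separately. Weighted by reads, junctions without insertions were 74.0, 54.9 and 61.7% in the epidermal libraries, against 29.1 and 12.7% in the dermal ones. The 29.1% of dermal A includes its leading clonotype, which held 23.9% of TRBV13 reads there.

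Both CD103 sorts lay within the epidermal range of 32.1 to 44.0%. Of TRBV13 clonotypes, 41.3% lacked insertions in CD103hi cells and 33.3% in CD103+ cells, the latter close to epidermal C. WT dermis had 20.1% and lymph node 16.8%, near the bulk dermal values. Without traces the share was 29.0% in CD103+ cells (20 traces) and 31.25% in epidermal C (12 traces). Mean inserted nucleotides were 1.71, 1.75 and 2.07 in epidermal A, B and C, against 3.30 and 1.92 in dermal A and B. These overlapped, with a difference of -0.765 (exact permutation p = 0.4, adjusted 0.467), which was -0.0714 without dermal A and 0.155 in the set of dermal B and epidermal C. It was -1.59 in the set of the A libraries, -1.38 among clonotypes with at least 2 reads and -1.76 weighted by reads.

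By member, the layers did not overlap in TRBV13-3. In epidermal A, B and C, 38.1% (8 of 21), 44.4% (28 of 63) and 42.9% (3 of 7) of its clonotypes lacked insertions. In dermal A and B, 13.5% (7 of 52) and 16.7% (2 of 12) did. The exact 95% intervals of epidermal C (9.90 to 81.6%) and dermal B (2.09 to 48.4%) overlapped. TRBV13-2 had 42.9, 46.2 and 31.6% in epidermis, against 22.0 and 60.0% in dermis, and the 60.0% was 3 of 5 clonotypes. TRBV13-1 had 52.4% (11 of 21), 30.8% (4 of 13) and 0 of 2 in epidermis, against 22.2% (2 of 9) and 0 of 7 in dermis. In CD103hi cells TRBV13-1 reached 64.7% (22 of 34, exact 95% interval 46.5 to 80.3%), above TRBV13-2 with 31.6% (17.5 to 48.7%) and TRBV13-3 with 29.7% (15.9 to 47.0%). This order was not seen in CD103+ cells, where TRBV13-1 had 30.4%, TRBV13-2 40.6% and TRBV13-3 27.4%.

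**Figure D3:**
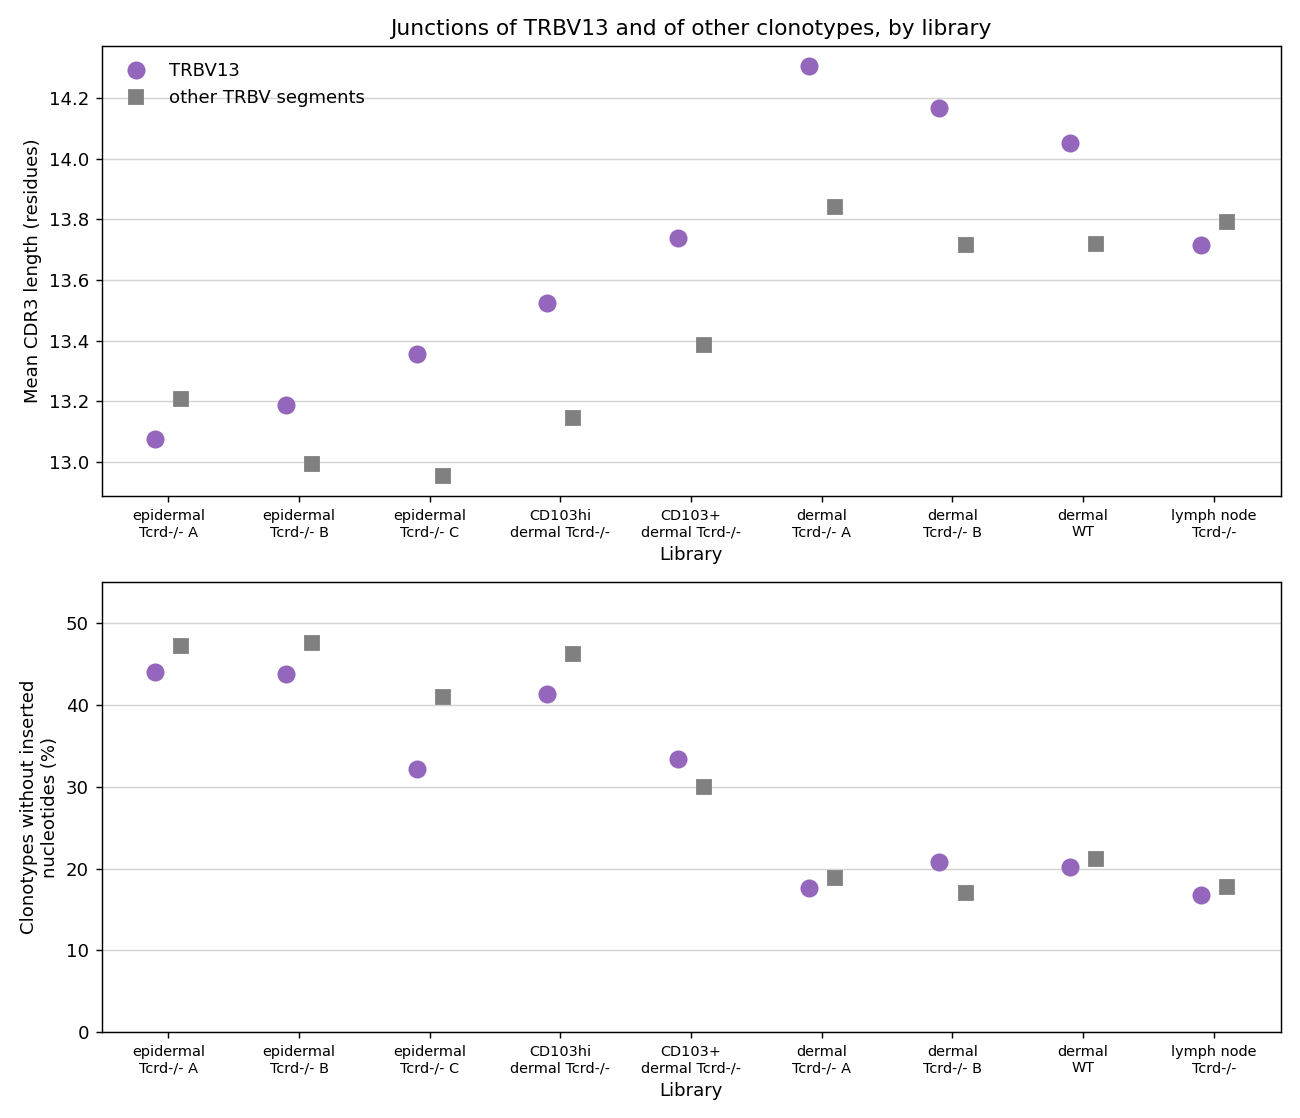
Mean CDR3 length (upper panel, residues; the axis does not start at 0) and share of clonotypes without inserted nucleotides (lower panel, %) for TRBV13 clonotypes (circles) and for clonotypes of all other TRBV segments (squares); each pair of symbols is 1 library. In the lower panel both symbols lie between 32.1 and 47.6% in the epidermal and CD103hi libraries, and between 16.8 and 21.2% in the bulk dermal, WT and lymph node libraries.

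Set beside the other V segments of the same library, TRBV13 clonotypes had a higher mean length in 7 of 9 libraries, but no measure passed after adjustment. The length difference was 0.263 residues on average (13.7 against 13.4; exact sign-flip permutation p = 0.0195, 0.0781 after Benjamini-Hochberg adjustment over 4 measures). Epidermal A and lymph node went the other way, by -0.13 residues at the most. Weighted by reads the difference was 0.273 residues with an exact permutation p of 0.0117 (adjusted 0.0234). The share without insertions was 1.85 points lower in TRBV13 by clonotypes (exact permutation p = 0.203, adjusted 0.271; lower in 7 of 9). It was 5.44 points higher by reads (exact permutation p = 0.0117, adjusted 0.0234). The other segments also differed between the layers without overlap. Their mean length was 13.2, 13.0 and 13.0 residues in epidermal A, B and C, against 13.8 and 13.7 in dermal A and B. Their shares without insertions were 47.1, 47.6 and 40.9% in epidermis, against 18.8 and 17.0% in dermis. Whether the gap between layers was of another size in TRBV13 was not tested.

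Over distinct clonotypes in all libraries, no pair of members passed the test in length or in the share without insertions. The share was higher in TRBV13-2 than in TRBV13-3 in 8 of 9 libraries, by 8.42 points on average (35.6 against 27.2%; exact permutation p = 0.082, adjusted 0.492 over 6 tests). Without epidermal C the difference was 10.9 points, with an exact permutation p of 0.00781 (adjusted 0.0469). It was 6.19 points with junctions counted from the reference. Of the 3 mean differences in length, that of TRBV13-2 minus TRBV13-3 was the farthest from 0, at -0.0634 residues. Weighted by reads that difference had the opposite sign and passed, at 0.26 residues (exact permutation p = 0.00781, adjusted 0.0469).

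How much of the V segment was kept is described for the 3 libraries with the most TRBV13 clonotypes. The complete germline end of 16 bases was present in 24.7% of TRBV13-1, 30.5% of TRBV13-2 and 15.0% of TRBV13-3 complete clonotypes of lymph node. In CD103+ cells it was kept in 19.0, 32.3 and 16.7%, and in WT dermis in 17.0, 39.6 and 14.7%, of the 3 members in the same order. TRBV13-3 was thus the lowest of the 3 in each of these libraries. The deposited V part extended beyond the 16 germline bases in 17.9% of TRBV13-1, 24.8% of TRBV13-2 and 9.30% of TRBV13-3 clonotypes.

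CDR3 regions that began with CASGD or CASSD, the residues encoded by the germline ends, made up 33.3 to 54.3% of chains by library. The count goes by residues, so an aspartate from other bases is included. The share was 51.2, 54.3 and 50.0% of complete TRBV13 clonotypes for epidermal A, B and C, against 41.2 and 33.3% in dermal A and B. CD103hi cells had 51.0%, CD103+ cells 46.1%, WT dermis 42.3% and lymph node 46.2%. The epidermal values lay above the dermal ones, but the exact 95% intervals of epidermal A (40.1 to 62.1%) and dermal A (31.3 to 51.7%) overlapped. In lymph node, with the most clonotypes, 56.3% of TRBV13-2 (54.4 to 58.2%), 44.8% of TRBV13-1 (42.8 to 46.7%) and 38.9% of TRBV13-3 chains (37.2 to 40.6%) began so.

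The J segments joined to TRBV13 varied between libraries of the same layer. TRBJ1 segments were joined in 20.9, 27.3 and 14.3% of TRBV13 clonotypes in epidermal A, B and C, against 18.6 and 16.7% in dermal A and B. The difference of 3.19 points overlapped (exact permutation p = 0.8, adjusted 0.8) and changed sign, to -0.065, without epidermal B. CD103hi cells had the highest TRBJ1 share, 42.2%, followed by CD103+ cells with 33.3%, lymph node with 30.6% and WT dermis with 24.6%. In the rest of the CD103hi clonotypes it was 26.1%.

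TRBJ2-1 was joined to 25.3 and 25.0% of TRBV13 clonotypes in epidermal A and B and to 7.14% in epidermal C, against 9.80 and 4.17% in dermal A and B. TRBJ2-3 was the reverse in A and B, with 3.30 and 3.91%, but reached 25.0% in epidermal C, against 22.5 and 20.8% in dermal A and B. In the other V segments TRBJ2-1 was 20.3, 19.5 and 6.82% in epidermal A, B and C, against 15.8 and 17.0% in dermal A and B. Their TRBJ2-3 share was 7.05, 4.23 and 2.27% in epidermis, against 9.02 and 15.1% in dermis. Tested over the 9 libraries against the other V segments, 0% of the 12 TRBJ segments differed after adjustment (1 had an unadjusted p under 0.05). That one was TRBJ1-5, at 1.53% of TRBV13 and 3.15% of other clonotypes (exact sign-flip permutation p = 0.0352, adjusted 0.422).

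By member, the most frequent partner of TRBV13-2 was TRBJ2-4 in epidermal A (16 of 49 clonotypes), TRBJ2-5 in epidermal B (16 of 52) and TRBJ2-3 in epidermal C (6 of 19). It was TRBJ2-3 in both dermal libraries, with 13 of 41 and 2 of 5, and in WT dermis, with 23 of 99. CD103hi cells paired it most with TRBJ1-1 (7 of 38) and CD103+ cells with TRBJ2-5 (18 of 69). TRBV13-3 was joined most to TRBJ2-1 in epidermal A and B (7 of 21 and 18 of 63) and to TRBJ2-2 in epidermal C (2 of 7). Its leading partner was TRBJ1-1 in CD103hi and CD103+ cells (9 of 37 and 18 of 73) and TRBJ2-7 in WT dermis (33 of 109). TRBV13-1 went most to TRBJ2-7 in epidermal A and B (5 of 21 and 6 of 13) and in CD103+ cells (10 of 23), to TRBJ1-3 in CD103hi cells (10 of 34), and to TRBJ2-4 in dermal B (4 of 7). In lymph node TRBJ2-7 led for all 3 members, at 17.9% of TRBV13-1, 19.5% of TRBV13-2 and 18.2% of TRBV13-3.

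**Figure D4:**
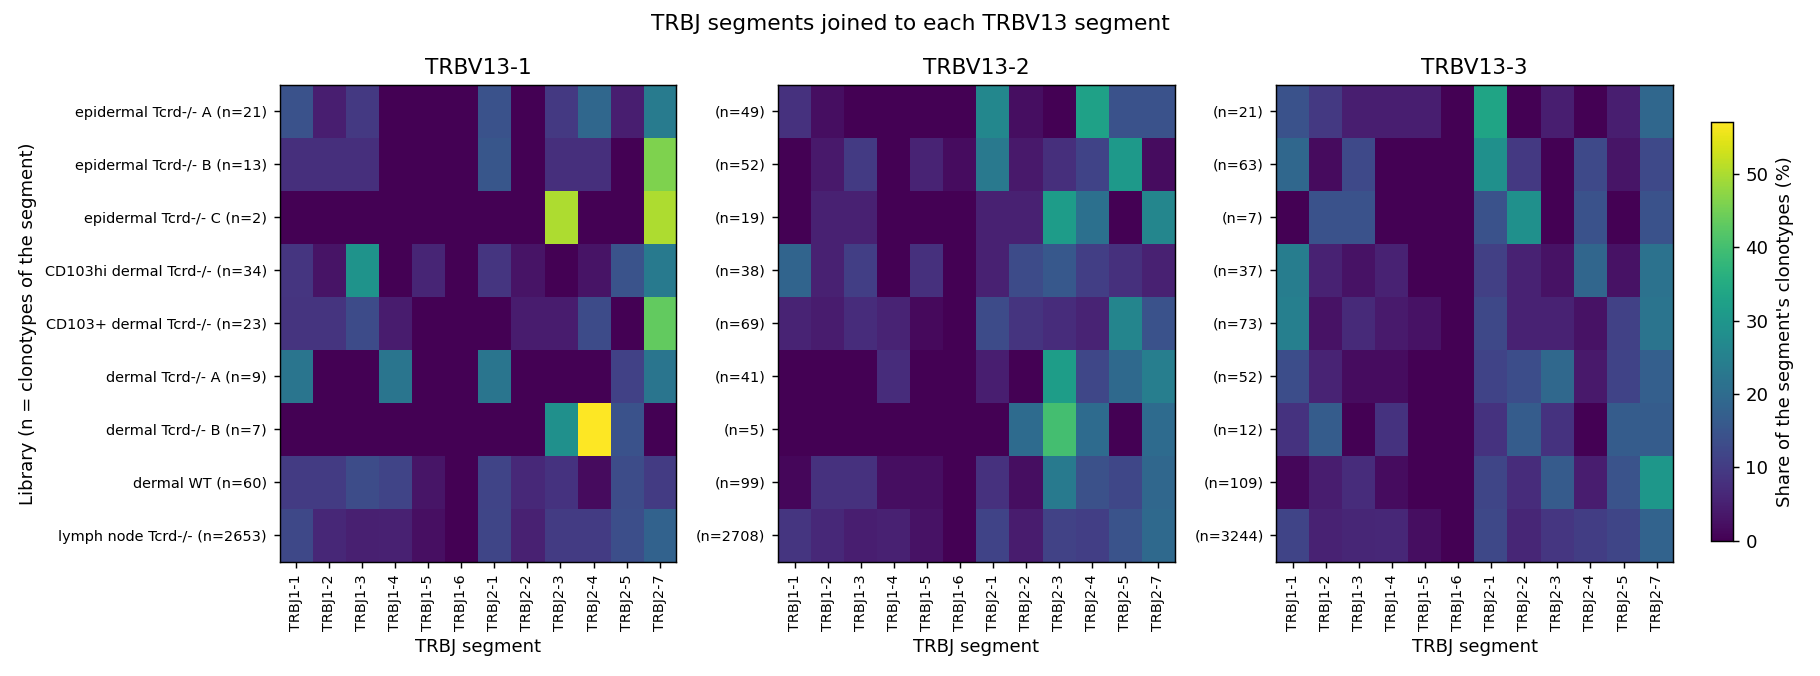
Share of each TRBV13 segment's clonotypes (colour, %) joined to each TRBJ segment (columns) in each library (rows, with the number of clonotypes of the segment). Lymph node rows have TRBJ2-7 highest for each member, at 17.9 to 19.5%. Some skin rows also peak at TRBJ2-7, such as TRBV13-3 in WT dermis (33 of 109 clonotypes). Others peak elsewhere, such as TRBV13-2 in epidermal A at TRBJ2-4 (16 of 49 clonotypes).

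Among skin libraries, more TRBV13 clonotypes were shared within a name set than between sets. Skin libraries of the same set shared a median of 7 amino acid clonotypes (range 3 to 28 over 7 pairs), against 0 (range 0 to 3 over 21 pairs) for skin libraries of different sets. Without traces the medians were 3 (1 to 7) and 0 (0 to 2). Epidermal B and CD103+ shared most, 28 clonotypes, which held 63.4% of the TRBV13 reads of epidermal B and 7.95% of those of CD103+. Without traces they shared 7. The 14 clonotypes common to epidermal A and dermal A held 50.1% of TRBV13 reads in epidermal A and 1.04% in dermal A, and 6 remained without traces. The lymph node library, with far more clonotypes, shared 21 with epidermal A and 14 with dermal A, of its own set, and a median of 7.5 (range 1 to 20 over 6 pairs) with skin libraries of other sets. The 20 shared with WT dermis, of another set, were the most of any pair once traces were left out. No TRBV13 clonotype was listed in more than 1 of the 3 epidermal libraries, nor in both bulk dermal libraries. Whether cells shared by the tissues or reads passed between libraries account for the sharing within sets was not tested.

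Of the complete amino acid clonotypes left without traces, 8605 were seen in 1 name set, 47 in 2 and 1 in all 3. Of the 48 in several sets, 44 were listed in lymph node. The 1 in all 3 sets was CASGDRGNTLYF (TRBV13-2, TRBJ1-3), listed with 1 read in CD103hi cells, 706 reads in WT dermis and 1 read in lymph node. Found in the most libraries, 4, was a TRBV13-3 and TRBJ1-1 clonotype, shown because its 2 main nucleotide versions recurred together:
version with an inserted base: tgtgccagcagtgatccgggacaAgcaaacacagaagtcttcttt
version without: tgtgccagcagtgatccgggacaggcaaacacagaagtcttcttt
The version with the insertion had 49 reads in CD103hi cells, 568 in CD103+ cells and 639 in dermal A. The other had 138 reads in CD103hi cells, 606 in CD103+ cells, 225 in dermal A and 5 in lymph node. Both encode the same residues. Their labels go by the deposited positions. In both versions the bases cc after the germline V part do not continue the V end and are in neither D segment. The deposited positions nevertheless assign them to a segment. A close relative in dermal A, with 1113 reads (2.10% of the library), had the same V and J segments:
dermal A relative: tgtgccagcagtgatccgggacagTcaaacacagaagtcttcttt
Its amino acid sequence was also listed in CD103hi cells, from another nucleotide sequence with 5 reads.

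The other chains given here were each listed in 2 sets. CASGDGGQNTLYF (TRBV13-2, TRBJ2-4) had 654 reads in epidermal A (1.42%) and 2 in CD103hi cells, with the same nucleotides. A TRBV13-2 and TRBJ2-1 chain had 91 reads in epidermal A, 70 in WT dermis with the same nucleotides, and 2 in lymph node with others. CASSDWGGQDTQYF (TRBV13-3, TRBJ2-5) had 10 reads in epidermal A, 141 in CD103+ cells and 5 in lymph node with the same nucleotides. The largest by reads of the clonotypes in several sets, chosen after its values were seen, was the epidermal C leader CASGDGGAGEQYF, with 4330 reads there and 2 in lymph node from other nucleotides.

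Several nucleotide versions of 1 amino acid clonotype were found in 5.81, 4.96 and 3.70% of TRBV13 amino acid clonotypes in epidermal A, B and C, against 3.03% in dermal A and 0 of 24 in dermal B. CD103hi cells had 9.09%, CD103+ cells 4.43%, WT dermis 5.53% and lymph node 4.73%, with up to 6 versions of 1 clonotype there. Between 0.980% (dermal A) and 16.7% (dermal B) of TRBV13 clonotypes in a skin library differed by 1 base from a clonotype with at least 10 times their reads. How many of these were sequencing or PCR errors was not tested.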

How the data were processed

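β chain transcripts of sorted cells were copied by 5′ RACE, amplified by PCR, indexed and read on an Illumina MiSeq, per the labels' protocols and the design text. Per the file headers, each deposited table gives 1 clonotype per line with its read count, the fraction of the library's reads, its V, D and J segments, and their ends or starts in the CDR3. For the clonotype caller, error correction and genome build, versions and names are not given in the sources used here. In the deposited tables the fraction equalled count over library total for all clonotypes. TRBV13 clonotypes were selected by V segment, and inserted nucleotides were CDR3 bases outside the deposited V, D and J positions. Those positions can cover bases that match no germline segment, which were then not counted as inserted. A CDR3 was complete from C to F or W (9290 of 9520). The 3 members were always named, with the 3 largest complete clonotypes per library, the amino acid clonotypes in most name sets (at most 6), the leading TRBJ per member and the 2 V segments most like each member. Members, lists and tests were chosen with earlier results of these data known.

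Segment counts were tested with edgeR 4.0.16 in R 4.3.3 (quasi-likelihood, common dispersion, no abundance trend, library totals, at least 10 counts), and DESeq2 1.42.0 was an alternative. The edgeR fit and permutation tests were tested on simulated data. Single measures used exact two-sided permutation over the 5 epidermal and dermal libraries, or sign flips within libraries with at least 5 clonotypes, in Python 3.11.15 with scipy 1.17.1. V segments were aligned with Biopython 1.88. Intervals are exact Clopper-Pearson at 95%. A count of 0 allows up to 0.00943% of reads in the shallowest library, taking 3 counts as the limit. Alternatives were minimum reads, traces, complete CDR3, read weighting, left-out libraries, CD103 sorts as dermal, blocks, TMM and no filter; the abundance trend, reference junctions and skin libraries only were added after seeing the data.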

Additional observations from a re-analysis of the deposited data

How the results depend on the processing

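Of 355 alternative values, 321 kept their direction and side of the threshold or, for counts of called segments, the same count. Another 29 changed sign (2 of them newly passed the threshold) and 5 were stronger. Of those 5, 2 were counts of TRBV segments called by reads, which rose from 0, and the others newly passed with the same sign. The epidermal minus dermal permutation tests have too few libraries to pass at 0.05 in any setting, so those values could only change sign. Their values by replicate block or within a name set had no p-value and were compared by sign alone. In the epidermal minus dermal comparison, TRBV13 read share, TRBV13-3 share, CDR3 length and the share without insertions kept their sign throughout, with leave-one-out ranges of -24.3 to -9.79 points, -26.5 to -13.4 points, -1.10 to -0.959 residues and 18.7 to 24.6 points. The TRBJ1 share became -5.00 points with at least 2 reads, -2.58 without traces, -13.0 by reads, -6.87 with CD103 sorts counted as dermal, and -2.38 in the set of dermal B, with a leave-one-out range of -0.065 to 6.46. Clonotype share ranged from -11.1 to 1.14 points and was 7.72 in the set of dermal B, -14.8 in that of dermal A and -12.1 with at least 2 reads; mean inserted nucleotides were 0.155, -1.59 and -1.38. By clonotypes, leave-one-out log2 fold changes ranged from -1.05 to 0.18 for TRBV13-1 and from -0.0304 to 1.39 for TRBV13-2; by reads, TRBV13-1 was -0.22 with the library set as a block. By reads, 2 segments were called with the abundance trend (TRBV13-3, log2 fold change -1.87) and 4 with DESeq2. Against other segments, weighting by reads gave 0.273 residues (newly past the threshold) and 5.44 points without insertions (opposite sign, also past it). Pairs of members had small length differences that changed sign: TRBV13-2 minus TRBV13-3 was 0.0583 with at least 2 reads, 0.0817 without traces and 0.26 by reads, past the threshold with an adjusted p of 0.0469 (exact permutation; leave-one-out -0.168 to 0.0161); TRBV13-1 minus TRBV13-3 was 0.019 without traces and 0.136 by reads (leave-one-out -0.226 to 0.203); TRBV13-1 minus TRBV13-2 ranged from -0.278 to 0.0992. The share without insertions, TRBV13-1 minus TRBV13-2, was 4.95 points with at least 2 reads and 0.754 without traces (leave-one-out -12.6 to 0.663); the other pairs ranged from -0.468 to 6.91 (TRBV13-1 minus TRBV13-3) and from 4.06 to 10.9 (TRBV13-2 minus TRBV13-3). The cause was not tested. Deviations of V segment read shares from the group means had correlations of -0.0838 between the A libraries and -0.0182 between the B libraries, over 26 segments. With 3 and 2 libraries this cannot show whether the replicate letters pair the libraries. Epidermal A and dermal A shared 14 TRBV13 clonotypes, and epidermal B and dermal B shared 0. As a replicate block the letters gave differences of -14.0 points of reads, -1.10 residues and 24.6 points without insertions. With that block 0 segments were called, and no call changed. Few clonotypes limit TRBV13-1 in epidermal C (2) and TRBV13-2 in dermal B (5).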
